A study of Mus musculus with 16 samples.

Results

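The genes described here are the amyloid precursor protein gene *App*, its relatives *Aplp1* and *Aplp2*, genes of the proteases that cut these proteins (*Adam10*, *Bace1*, *Psen2*, *Ncstn* and *Aph1a*) and the Alzheimer risk gene *Bin1*. They were chosen by symbol, as 9 of the 55471 lines that each of the expression tables of day 5 and day 7 holds, and each of the 9 was found once in both tables. *App* and *Bin1* were included because the study lists them as the nearest genes to sites where it placed the lncRNA *RUS* on chromatin. Polyadenylated RNA was sequenced from neural stem cells (NSC) of cortices of C57BL/6 embryos at embryonic day 15 to 16, pooled from mixed sexes, in 16 libraries of 4 groups. All cells were grown as monolayers, at first with the mitogen bFGF, and all received a lentivirus 1 day after seeding, carrying either a scrambled shRNA (shRNA-CON) or an shRNA against *RUS* (shRNA-RUS). Cells were taken on day 5 or day 7 after seeding, with 4 libraries for each shRNA and day. Day 5 was also the day on which, by the labels, differentiation medium was given, with bFGF removed, so the day 5 libraries stand at the start of differentiation and the day 7 libraries within it. Time in culture and the loss of bFGF cannot be told apart in any comparison between the days. The knockdown rests on 1 shRNA sequence, and the labels do not say whether libraries of a group came from separate cell preparations, so p-values measure the spread between these libraries, which may be technical.

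*App* encodes a single-pass membrane protein with a large outer domain, and *Aplp1* and *Aplp2* encode proteins of the same build that lack the amyloid beta peptide. The proteins are first shed by alpha-secretase, of which ADAM10 is the main neuronal enzyme, or by the beta-secretase BACE1. The stump left in the membrane is then cut by gamma-secretase, a complex of a presenilin as the catalytic subunit, nicastrin (*Ncstn*), an APH1 protein and PEN2 (*Psenen*). Cutting by BACE1 followed by gamma-secretase releases amyloid beta. In the embryonic cortex the App family is known for roles in cell adhesion, migration and the growth of neurites, and gamma-secretase for cutting Notch, which keeps progenitors undifferentiated. *Bin1* encodes a protein with a BAR domain, which binds and bends membranes in endocytosis and endosomal traffic.

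Promoter windows from RefSeq (GRCm38.p6, 250 bases before to 50 after the annotated start) were found for 7 of the 9 genes, and those of *App*, *Aplp2* and *Ncstn* are shown because *App* and *Aplp2* moved apart under the knockdown while *Ncstn* followed *App* most closely. Capitals mark GGGCGG, the core of the GC box, on either strand (CCGCCC on the other); they are given 5′ to 3′ on the strand of the gene, which is the minus strand for all 3.
App, chr16:85173658-85173957: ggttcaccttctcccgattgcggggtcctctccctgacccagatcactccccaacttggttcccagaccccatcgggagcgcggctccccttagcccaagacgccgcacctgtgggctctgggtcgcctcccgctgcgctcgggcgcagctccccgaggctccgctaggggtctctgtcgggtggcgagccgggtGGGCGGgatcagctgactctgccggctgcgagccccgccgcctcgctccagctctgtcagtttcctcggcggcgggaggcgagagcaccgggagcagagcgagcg
Aplp2, chr9:31211799-31212098: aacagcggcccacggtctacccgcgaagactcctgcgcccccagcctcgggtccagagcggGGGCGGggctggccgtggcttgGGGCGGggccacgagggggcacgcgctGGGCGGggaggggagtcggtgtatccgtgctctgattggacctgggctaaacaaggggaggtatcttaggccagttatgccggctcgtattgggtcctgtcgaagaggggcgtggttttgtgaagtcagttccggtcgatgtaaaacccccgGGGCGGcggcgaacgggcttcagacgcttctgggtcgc
Ncstn, chr1:172082700-172082999: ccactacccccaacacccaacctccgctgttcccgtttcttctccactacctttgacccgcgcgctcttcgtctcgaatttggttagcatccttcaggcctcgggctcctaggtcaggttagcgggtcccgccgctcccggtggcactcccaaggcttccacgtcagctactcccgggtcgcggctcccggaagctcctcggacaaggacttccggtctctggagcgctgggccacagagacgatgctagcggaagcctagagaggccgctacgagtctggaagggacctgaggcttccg
The *App* window holds the motif 1 time, the *Aplp2* window 4 times and the *Ncstn* window 0 times. The windows of the other matched members hold it between 0 and 4 times, with 4 and 0 in the windows of *Psen2*, 3 for *Adam10*, 2 for *Aplp1* and 1 for *Aph1a*. Of all 32851 windows of this length, 35.7% hold it at least once. Any part of the motif in the changes was not tested. TATAAA, searched on both strands, is in 0 of the members' windows and in 13.6% of all windows. The windows of *App*, *Aplp2* and *Ncstn* are rich in CpG, with 30, 29 and 25 CpG against a median of 7 over all windows. A match describes the letters in the window and nothing about a factor bound there.

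*RUS* is listed as *Gm20754* and was close to the lower limit of these tables. On day 5 it was listed at 0.24, 0.11, 0.18 and 0.16 TPM with shRNA-CON and at 0.05, 0, 0.12 and 0.32 with shRNA-RUS, and on day 7 at 0.70, 0.72, 0.26 and 0.54 against 0.54, 0.38, 0 and 0.04. The groups overlap on both days (two-sided exact permutation test, p = 0.543 and 0.143, where 0.0286 is the smallest p that 4 against 4 libraries allow). The paper also measured *RUS* by RT-qPCR for this experiment and reports a lower level with shRNA-RUS. Levels are given as scaled TPM, transcript levels per length (TPM) divided by a library factor that was between 0.920 and 1.11 on day 5 and between 0.991 and 1.01 on day 7. The tables hold no counts. The authors' mean of normalized counts was between 884.7 (*Psen2*, day 5) and 29789 (*App*, day 5) for the 9 genes, and 3.9 and 8.6 for *Gm20754*. The summed level of 6 neural stem markers was between 10585 and 12638 with shRNA-CON and between 15470 and 18706 with shRNA-RUS on day 5, and between 6496 and 6909 against 7016 and 7720 on day 7. *Vim* was its largest term. Of the 6 markers, 3 were called higher and 2 lower on day 5 (median log2 fold change of 0.12). On day 7 it was 2 higher and 2 lower (median 0.06). *Nes*, the progenitor filament gene, was lower with shRNA-RUS on both days (limma log2 fold changes of −0.87 and −1.19, adjusted p = 3.46e-05 and 1.71e-06), while *Pax6* was called higher on both (0.25 and 0.20). The 8 astrocyte markers were summed at 4944 to 5167 against 6372 to 6624 on day 5 and at 3565 to 3693 against 4243 to 4471 on day 7. That sum rests on *Gfap* and *Aldoc*, while 2 of the 8 markers were called higher and 1 lower on day 5 and 3 higher and 2 lower on day 7, with median log2 fold changes of 0.02 and 0.04. Over all genes tested 14.8% were called higher and 17.9% lower on day 5, and 23.4% and 25.8% on day 7, and the marker counts of this paragraph stand beside these shares. The summed level of 8 neuron markers overlapped between the groups on both days, at 456.1 to 518.0 against 470.1 to 524.6 and at 777.3 to 857.3 against 735.5 to 866.1, but single markers moved. On day 5 *Stmn2* and *Syt1* were called higher and *Map2* and *Dcx* lower (median −0.07). On day 7 *Snap25*, *Syp*, *Syt1* and *Rbfox3* were called higher and *Map2* and *Stmn2* lower (median 0.33). The 8 microglia markers were at 205.1 to 219.0 with shRNA-CON and 87.0 to 111.7 with shRNA-RUS on day 7, when all 8 were called lower. Of 10 markers of the oligodendrocyte lineage, 7 were called lower and 1 higher on that day (median −0.60, summed level 522.0 to 572.3 against 460.6 to 490.8), and 7 fibroblast and vascular markers were summed at 16.2 to 18.4 against 34.3 to 38.9, most of it *Pdgfrb*. On day 5 the oligodendrocyte markers had 4 lower and 1 higher (median −0.62) while their summed level was 346.0 to 429.4 against 398.4 to 536.4, and 3 microglia markers were lower and 5 not called (76.2 to 80.6 against 65.5 to 81.8 summed). In bulk RNA, fewer cells of a type and less RNA per cell cannot be told apart, and the part of these marker changes in the values below was not tested.

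On day 7, 8 of the 9 genes were higher with shRNA-RUS and *Aplp2* was lower, and no gene's groups overlapped. On day 5, *Psen2*, *Ncstn* and *Aph1a* were called higher, *Aplp2* was called lower, and *App*, *Aplp1*, *Adam10*, *Bace1* and *Bin1* did not pass the test (limma, adjusted p under 0.05 over all genes tested). The knockdown moved a large part of the transcriptome, so these counts stand beside a high background. Among the 22581 genes that could be tested on day 5, 14.8% passed as higher and 17.9% as lower, and 32.8% had groups that did not overlap, as 4 of the 9 did. Among the 24606 of day 7 it was 23.4% as higher and 25.8% as lower, and 47.0% had groups without overlap. The median log2 fold change of the 9 genes was 0.18 on day 5 and 0.39 on day 7, beside −0.06 and −0.03 over all genes. The 7 other secretase genes described below had medians of 0.03 and 0.08. The 9 genes were chosen with earlier results of these data known, so this contrast is a description without a test. Without library factors the median over all genes on day 5 is −0.21 and the share of calls that are higher falls from 45.4% to 22.7%. *Adam10* on day 5 then changes sign and *Aplp1* is called lower. Under quantile normalization *App* on day 5 changes sign, to −0.02 (adjusted p = 0.883), with the median over all genes at −0.00080. In the common fit of 16 libraries *App*, *Bace1* and *Bin1* are called higher on day 5 (adjusted p = 0.0395, 0.0159 and 0.0450).

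**Figure D1:**
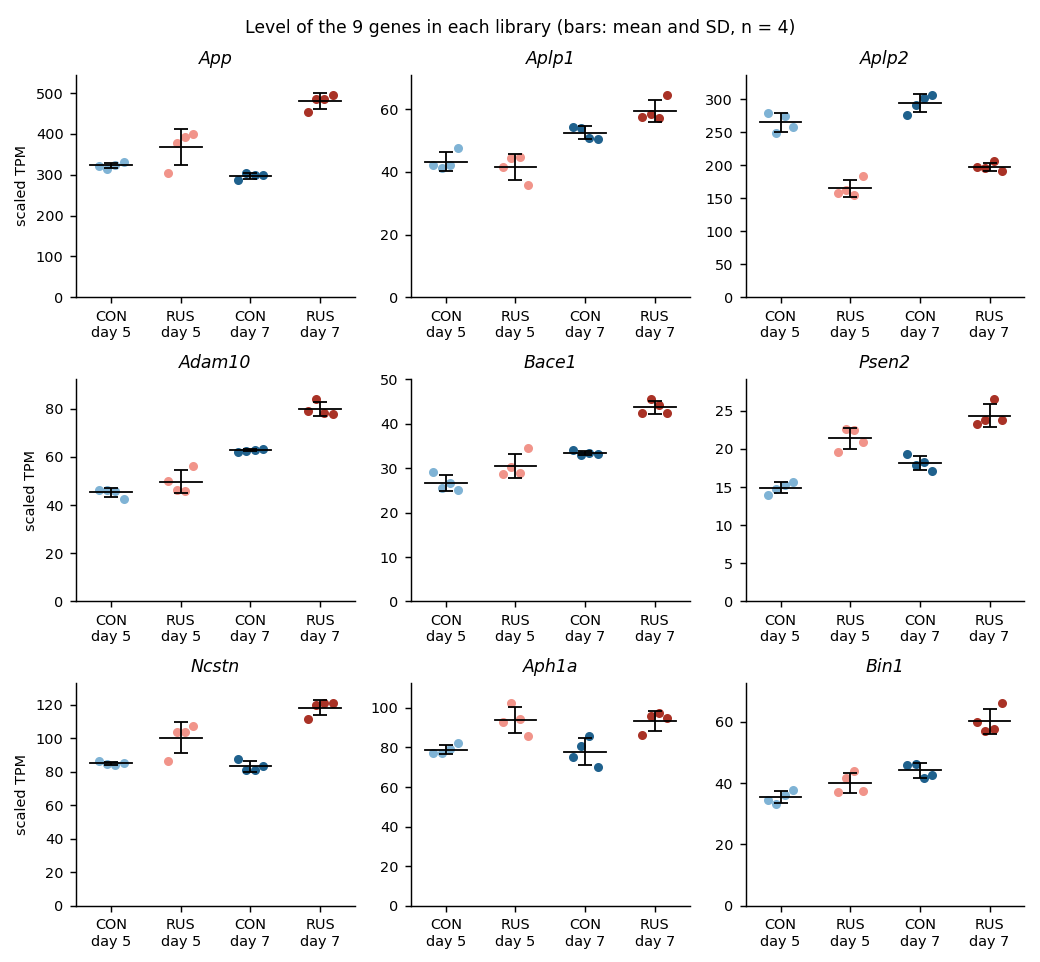
Scaled TPM (y axis, from 0, a scale of its own for each gene) of the 9 genes in each of the 16 libraries, in 4 groups of shRNA and day on the x axis; points are libraries, and bars are the mean and SD of 4. On day 7 every shRNA-RUS library lies above every shRNA-CON library for 8 genes and below for Aplp2, while on day 5 the groups of App, Aplp1, Adam10, Bace1 and Bin1 overlap.

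*App* (chromosome 16, 84949685 to 85173766, minus strand, GRCm38) was the most abundant of the 9. On day 5 it stood at 320.4, 315.4, 324.2 and 332.0 scaled TPM with shRNA-CON and at 304.8, 378.0, 392.4 and 400.1 with shRNA-RUS. Replicate 1 of shRNA-RUS lay below all 4 control libraries and the other three above them. The log2 fold change was 0.18 (limma, SE 0.08, adjusted p = 0.127), and it was 0.28 (adjusted p = 0.00411) without that library. On day 7 the values were 288.0, 305.5, 299.9 and 299.1 with shRNA-CON against 453.1, 486.4, 486.7 and 496.0 with shRNA-RUS. The gap between the groups was wider than either group's whole range, with a mean of 298.1 ± 7.32 against 480.6 ± 18.8 (SD, n = 4), a log2 fold change of 0.69 (SE 0.04, adjusted p = 6.41e-07). Only 1.85% of all genes tested on day 7 had a smaller p.

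*Aplp2* (chromosome 9, 31149557 to 31211815, minus strand) encodes the relative closest to APP and widely expressed. It was the only one of the 9 called lower as reported, and was so on both days. On day 5 it was at 278.9, 248.6, 275.2 and 258.7 scaled TPM with shRNA-CON and at 158.9, 163.2, 154.6 and 184.1 with shRNA-RUS, and on day 7 at 277.1, 291.3, 302.5 and 307.1 against 197.6, 195.7, 206.1 and 190.9. All libraries with shRNA-RUS lay under all libraries with shRNA-CON. The log2 fold change was −0.69 (limma, SE 0.07, adjusted p = 0.000104) on day 5 and −0.58 (SE 0.04, adjusted p = 3.36e-06) on day 7. The test of a difference between the days did not pass (0.10, SE 0.08, adjusted p = 0.389).

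*Aplp1* (chromosome 7, 30434982 to 30445535, minus strand), the member of the family that is largely restricted to neurons, had the smallest log2 fold changes of the 9 in size on both days. On day 5 its values overlapped, at 42.10, 41.25, 42.12 and 47.63 scaled TPM against 41.40, 44.41, 44.68 and 35.75, with a log2 fold change of −0.06 (limma, SE 0.08, adjusted p = 0.606). With TPM as deposited it was called lower on that day (−0.22, adjusted p = 0.0420). On day 7 they were 54.43, 54.06, 50.84 and 50.56 against 57.63, 58.29, 57.18 and 64.57. The shRNA-RUS libraries were all higher, with replicate 4 apart from the other three, and the log2 fold change was 0.18 (SE 0.05, adjusted p = 0.0135). That call was lost when all 16 libraries shared 1 fit (0.16, adjusted p = 0.0619).

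Because TPM is per length and a share within a library does not depend on the library factor, the make-up of the family could be read in each library. *App* made up 50.0%, 52.1%, 50.5% and 52.0% of the summed TPM of the 3 genes with shRNA-CON on day 5 and 60.4%, 64.5%, 66.3% and 64.5% with shRNA-RUS. On day 7 it was 46.5%, 46.9%, 45.9% and 45.5% against 64.0%, 65.7%, 64.9% and 66.0%. Replicate 1 of shRNA-RUS on day 5, which lay under the controls for *App* itself, thus lay above them in share. The *Aplp2* share went from 42.0% ± 1.42 to 28.8% ± 2.30 (SD, n = 4) on day 5 and from 45.6% ± 1.05 to 26.8% ± 1.12 on day 7, and that of *Aplp1* was between 6.85% and 8.14% in the mean of every group. *App* was 1.22 ± 0.067 times *Aplp2* with shRNA-CON and 2.24 ± 0.26 times with shRNA-RUS on day 5, and 1.01 ± 0.036 against 2.44 ± 0.14 times on day 7. The summed TPM of the family, as deposited, was 668.5 ± 38.7 against 546.8 ± 65.9 on day 5 and 645.4 ± 21.0 against 739.0 ± 24.0 on day 7, so it lay lower in the mean with shRNA-RUS on the first of these days and higher on the second. These shares are a description without a test.

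**Figure D2:**
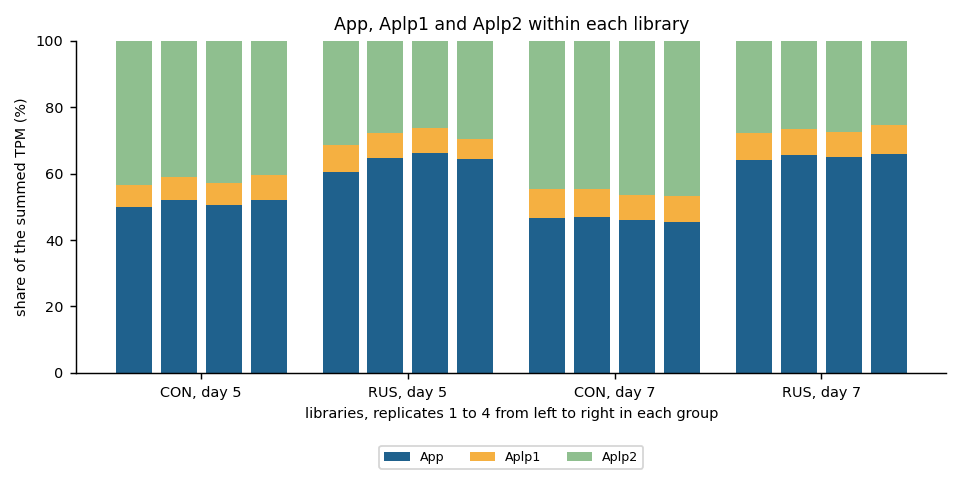
Share in percent (y axis) of App, Aplp1 and Aplp2 in their summed TPM, stacked for each of the 16 libraries (x axis, replicates 1 to 4 of each group from left to right). App is between 45.5% and 52.1% in the control libraries and between 60.4% and 66.3% with shRNA-RUS, with a smaller share of Aplp2.

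The shedding proteases on the 9-gene list, *Adam10* (alpha-secretase, chromosome 9, 70678997 to 70780229, plus strand) and *Bace1* (beta-secretase, chromosome 9, 45838580 to 45864399, plus strand), rose together on day 7. *Adam10* was at 62.24, 62.59, 63.00 and 63.51 scaled TPM with shRNA-CON and at 79.27, 84.09, 78.43 and 77.69 with shRNA-RUS, a log2 fold change of 0.34 (limma, SE 0.03, adjusted p = 2.84e-05). *Bace1* was at 34.13, 32.84, 33.42 and 33.21 against 42.49, 45.54, 44.25 and 42.39, a log2 fold change of 0.39 (SE 0.04, adjusted p = 2.44e-05). The control values of both genes lay close together, and the groups were far apart. On day 5 neither passed. *Adam10* was then at 46.37, 46.40, 45.99 and 42.40 against 50.15, 46.43, 45.97 and 56.43 (0.13, SE 0.07, adjusted p = 0.201), and *Bace1* at 29.08, 25.44, 26.67 and 25.18 against 28.74, 30.20, 28.86 and 34.49 (0.20, SE 0.08, adjusted p = 0.0744). In each case the highest value was that of replicate 4 of shRNA-RUS. The level of *Adam10* over that of *Bace1* was 1.71 ± 0.095 and 1.63 ± 0.088 (shRNA-CON and shRNA-RUS, SD, n = 4) on day 5 and 1.88 ± 0.040 and 1.83 ± 0.040 on day 7, with overlapping groups on both days.

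*Bace2*, the relative of *Bace1* that cuts APP elsewhere within the amyloid beta sequence, went the other way on day 7. It was at 150.9, 141.9, 142.9 and 129.8 scaled TPM with shRNA-CON and at 80.64, 85.53, 81.84 and 72.50 with shRNA-RUS, a log2 fold change of −0.82 (limma, SE 0.06, adjusted p = 4.40e-06), while on day 5 it was at 33.20 ± 1.70 against 33.96 ± 1.49 (SD, n = 4; 0.03, SE 0.06, adjusted p = 0.701). *Bace2* rose from day 5 to day 7 by a log2 fold change of 1.85 (SE 0.06, adjusted p = 1.69e-12) with shRNA-CON and by 0.99 (SE 0.06, adjusted p = 9.15e-10) with shRNA-RUS, and the difference between these was −0.86 (SE 0.08, adjusted p = 4.71e-06). *Bace1* accordingly made up 19.1% ± 0.844 of the summed TPM of both genes with shRNA-CON and 35.3% ± 1.08 with shRNA-RUS on day 7. Among the other alpha-secretase genes, *Adam17* was higher on both days (0.42 and 0.43, SE 0.06 and 0.05, adjusted p = 0.000759 and 5.12e-05) and *Adam19* on day 7 (0.27, SE 0.07, adjusted p = 0.0114, against −0.07, adjusted p = 0.654, on day 5). *Adam9* did not pass on either day, at 0.05 (adjusted p = 0.523) and 0.08 (adjusted p = 0.116).

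The genes of the gamma-secretase complex on the list were higher with shRNA-RUS on both days. *Psen2* (chromosome 1, 180227004 to 180263438, minus strand), which encodes a presenilin, was at 13.98, 14.80, 15.23 and 15.62 scaled TPM with shRNA-CON and at 19.61, 22.56, 22.48 and 20.86 with shRNA-RUS on day 5. On day 7 it was at 19.37, 17.91, 18.23 and 17.08 against 23.24, 23.78, 26.56 and 23.85. The groups lay apart on both days, with log2 fold changes of 0.52 (limma, SE 0.07, adjusted p = 0.000471) and 0.42 (SE 0.06, adjusted p = 0.000227).

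*Ncstn* (chromosome 1, 172066013 to 172082795, minus strand), whose product holds the complex together and receives substrates, was at 86.53, 84.45, 84.08 and 85.18 scaled TPM with shRNA-CON and at 86.74, 103.6, 103.5 and 107.3 with shRNA-RUS on day 5. As for *App*, replicate 1 of shRNA-RUS stood with the controls, above the highest of them by less than 1 scaled TPM. The log2 fold change was 0.23 (limma, SE 0.07, adjusted p = 0.0279), and the call was lost when any one of the 4 control libraries or replicate 2 or 3 of shRNA-RUS was left out (adjusted p of up to 0.0724). It was also lost with TPM as deposited (0.07, adjusted p = 0.541), with quantile normalization (0.11, adjusted p = 0.319), with eBayes without trend (adjusted p = 0.0613) and with the replicate block (adjusted p = 0.0827). On day 7 the values were 87.93, 80.92, 81.01 and 83.23 against 111.5, 119.7, 121.0 and 120.9, with no overlap, a log2 fold change of 0.51 (SE 0.04, adjusted p = 8.06e-06).

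*Aph1a* (chromosome 3, 95893969 to 95898288, plus strand), the gene of the main APH1 subunit, was at 77.09, 77.37, 78.99 and 82.14 scaled TPM against 92.95, 102.4, 94.37 and 85.96 on day 5 and at 75.12, 80.69, 85.62 and 70.09 against 86.15, 96.00, 97.29 and 95.04 on day 7. The groups did not overlap, though on day 7 the highest control and the lowest knockdown library were less than 1 scaled TPM apart. The log2 fold change was 0.25 (limma, SE 0.06, adjusted p = 0.0112) on day 5 and 0.27 (SE 0.07, adjusted p = 0.00741) on day 7. The day 5 call was lost with TPM as deposited (0.09, adjusted p = 0.221), with quantile normalization (0.12, adjusted p = 0.0775) and with the replicate block (adjusted p = 0.0622). *Aph1b*, the gene of the other subunit form, fell on both days, by 0.44 and 0.42 on the log2 scale (SE 0.09 and 0.06, adjusted p = 0.00476 and 0.000201). *Aph1c*, a rodent copy of *Aph1b* that can share its reads, was at −0.25 (adjusted p = 0.398) and −0.33 (adjusted p = 0.191), so both are uncertain as single genes. The *Aph1a* share of the 3 genes went from 79.6% ± 0.706 to 86.0% ± 2.22 (SD, n = 4) on day 5 and from 71.7% ± 2.02 to 80.2% ± 1.54 on day 7. *Psenen*, the gene of the smallest subunit, rose on both days, from 183.4 ± 8.10 to 293.9 ± 24.6 scaled TPM on day 5 (log2 fold change 0.68, SE 0.07, adjusted p = 0.000128) and from 151.1 ± 7.71 to 193.9 ± 3.54 on day 7 (0.36, SE 0.04, adjusted p = 5.47e-05). Over the 7 other secretase genes described, 2 were called higher and 1 lower on day 5, and 3 higher and 2 lower on day 7, beside the 14.8% and 17.9% of all genes on day 5 and the 23.4% and 25.8% on day 7.

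*Bin1* (chromosome 18, 32377230 to 32435737, plus strand) was at 34.33, 33.24, 36.13 and 37.74 scaled TPM with shRNA-CON and at 37.19, 41.58, 44.10 and 37.39 with shRNA-RUS on day 5. The groups overlap, since replicates 1 and 4 of shRNA-RUS lay under the highest control, and the log2 fold change of 0.18 (limma, SE 0.07, adjusted p = 0.0881) did not pass, though it did without replicate 4 of shRNA-RUS (0.21, adjusted p = 0.0498). On day 7 the values were 46.03, 46.25, 41.53 and 42.80 against 59.92, 57.02, 57.72 and 66.09. All libraries with shRNA-RUS lay clearly above all controls, a log2 fold change of 0.45 (SE 0.06, adjusted p = 0.000154). The relative *Bin2*, which is known from blood cells and microglia, fell on day 7 from 4.87 ± 0.865 to 2.18 ± 0.427 scaled TPM (SD, n = 4), on the day on which the summed microglia markers were lower, and *Bin3* fell by 0.43 on the log2 scale (adjusted p = 6.61e-05), so *Bin1* was the only one of the 3 to rise on that day.

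**Figure D3:**
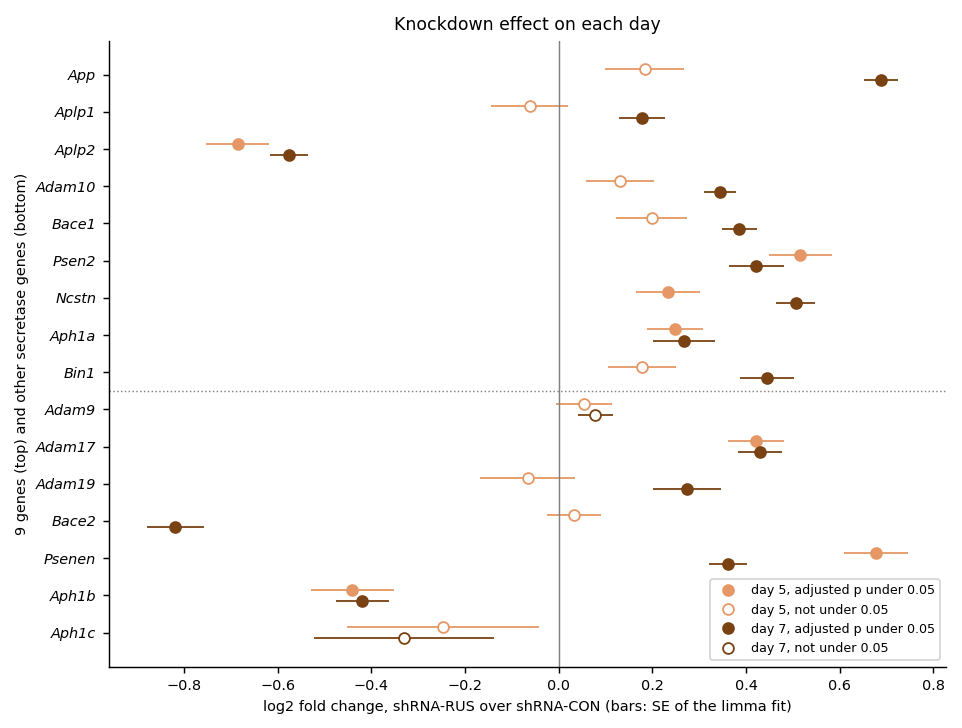
Log2 fold change of shRNA-RUS over shRNA-CON (x axis, bars are the SE of the limma fit) on day 5 and day 7 for the 9 genes and 7 other secretase genes (y axis); filled points have an adjusted p under 0.05. App moves from 0.18 to 0.69 between the days, Aplp2 lies at −0.69 and −0.58, and Bace2 at 0.03 and −0.82.

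Among the 9, the 3 genes whose knockdown effect differed between the days were *App*, *Ncstn* and *Bin1*, by the interaction in 1 fit of all 16 libraries, where 29.8% of 23789 genes were called. The effect on *App* was larger on day 7 by 0.49 on the log2 scale (limma, SE 0.09, adjusted p = 0.00107), that on *Ncstn* by 0.26 (SE 0.08, adjusted p = 0.0207) and that on *Bin1* by 0.26 (SE 0.09, adjusted p = 0.0489). The calls of *App* and *Ncstn* held in each of the 16 fits that left out 1 library, with log2 values from 0.40 to 0.54 and from 0.19 to 0.30. Under the other settings both calls also held, with values of up to 0.87 for *App* and up to 0.43 for *Ncstn*. With TPM as deposited *Aplp1* (0.40), *Adam10* (0.37) and *Bace1* (0.35) were called as well, and *Bin1* was at 0.43 (adjusted p = 0.00328). Without replicate 4 of shRNA-RUS on day 5, *Adam10* (0.26, adjusted p = 0.00372) and *Bace1* (0.23, adjusted p = 0.0145) were called too. That library was at 15.9 on the first principal component of day 5, against 40.5 to 56.2 in the other three of its group and −53.6 to −26.2 with shRNA-CON. *Adam10* was also called without replicate 4 of shRNA-CON on day 5 (0.23, adjusted p = 0.0448). The call of *Bin1* was lost in 12 of these 16 fits, in which its adjusted p reached 0.103, and also with no filter on the mean (adjusted p = 0.0736), with eBayes without trend (0.0733) and with the replicate block (0.0828). *Psenen* and *Bace2* differed in the opposite direction, by −0.33 (SE 0.08, adjusted p = 0.00575) and −0.86. That of *Psenen* was lost with TPM as deposited (−0.15, adjusted p = 0.0600) and with quantile normalization (−0.03, adjusted p = 0.720).

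Without the knockdown, *App* fell from day 5 to day 7. Scaled over all 16 libraries, it went from 351.1 ± 7.27 to 276.0 ± 6.97 (SD, n = 4), a log2 fold change of −0.35 (limma, SE 0.07, adjusted p = 0.000379), while with shRNA-RUS it was at 400.4 ± 46.9 and 440.6 ± 16.1 (0.15, SE 0.07, adjusted p = 0.0675). *Ncstn* and *Aph1a* also fell with shRNA-CON, by 0.26 and 0.25 (adjusted p = 0.00100 and 0.00279), and *Adam10* rose by 0.24 (adjusted p = 0.00254). These 1 higher and 3 lower of the 9 stand beside 26.9% higher and 21.6% lower among all genes. With shRNA-RUS, *Adam10* (0.44), *Bin1* (0.34), *Aplp1* (0.28) and *Bace1* (0.27) rose and *Aph1a* fell (−0.25), with adjusted p between 6.17e-06 and 0.00255, beside 35.0% higher and 25.8% lower. The day comparisons lean on the scaling between days. With TPM as deposited, the median over all genes moves from 0.07 to 0.20 with shRNA-CON and from 0.13 to 0.41 with shRNA-RUS, and the share of calls that are higher goes from 55.5% to 71.4% and from 57.5% to 76.9% (for the interaction from 51.1% to 73.5%). *App* with shRNA-CON is then at −0.20 (adjusted p = 0.0530), and at −0.13 (adjusted p = 0.228) with quantile normalization, so its fall was not called under either. *App* with shRNA-RUS is called higher under both, at 0.47 (adjusted p = 8.29e-05) and 0.74 (adjusted p = 1.15e-06). It was also called without replicate 3 or replicate 4 of shRNA-RUS on day 5 (0.175 and 0.188, adjusted p = 0.0427 and 0.0210). With 1 library left out its log2 value went from 0.055 to 0.188. With TPM as deposited, *Ncstn* and *Aph1a* with shRNA-CON are at −0.11 and −0.10 (adjusted p = 0.209 and 0.194), and *Aph1a* with shRNA-RUS turns to 0.08 (adjusted p = 0.300). The day contrasts and the knockdown contrasts use the same libraries and are not independent of each other.

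*App* was the highest of the 9 in all 4 groups, at 341.7 ± 14.0 TPM as deposited (SD, n = 4) with shRNA-CON on day 5 and 481.6 ± 21.4 with shRNA-RUS on day 7, and *Psen2* the lowest, at 15.76 ± 0.50 and 24.41 ± 1.54. By the group means, *Aplp2*, *Ncstn*, *Aph1a* and *Adam10* followed *App* in this order in every group. *App* and *Aplp2* did not differ beyond their spread with shRNA-CON on day 7, at 298.2 ± 9.48 and 294.6 ± 14.5 TPM, and had no overlap in the other groups. *Aplp1* and *Bin1* overlapped with shRNA-RUS on both days and changed places between them, and *Ncstn* and *Aph1a* overlapped with shRNA-RUS on day 5 and with shRNA-CON on day 7. On day 5, *Adam10* and *Aplp1* overlapped with shRNA-CON, and *Bin1* and *Bace1* with shRNA-RUS.

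Across the 16 libraries and among 15849 other genes at or above 1 TPM in the mean, genes whose log2 level was among the 5 most like that of *App* were *Hk1* (Pearson r = 0.979), the hexokinase gene, *Phlpp1* (0.976), *Mettl27* (0.970) and *Ppp6r2* (0.966). *Ncstn* came next among the 9 genes, as rank 9 of all with r = 0.962, and *Aplp2* had r = −0.721. For *Bin1* they were *Pnrc1* (0.959), *Sppl3* (0.955), which encodes an intramembrane protease related to presenilin, *Unc45a* (0.955), *Taok2* (0.953) and *Tns2* (0.951), and *App* had r = 0.659. These r describe 16 libraries that fall into 4 groups and share those group means. *Hk1* was, like *App*, higher on day 7 (log2 fold change 0.95 by limma, SE 0.05, adjusted p = 8.53e-07) and not called on day 5 (0.19, adjusted p = 0.0730), and *Sppl3* was higher on both days (0.26 and 0.57, adjusted p = 0.00536 and 1.33e-05).

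Other genes of the pathway moved in both directions, and their counts stand beside the shares over all genes tested, 14.8% higher and 17.9% lower on day 5 and 23.4% and 25.8% on day 7. Of 16 regulators of the secretases tested, 5 were higher and 6 lower on day 5, and 8 and 5 on day 7 (median log2 fold change of 0.03 on each day). *Tmed10*, a cargo receptor of the early secretory pathway known to restrain gamma-secretase, had the largest increase on both days, from 133.3 ± 5.56 to 252.9 ± 10.6 scaled TPM (SD, n = 4) on day 5 (0.92 by limma, SE 0.05, adjusted p = 1.24e-05) and to a log2 fold change of 1.08 (SE 0.03, adjusted p = 4.60e-08) on day 7. *Timp3*, an inhibitor of metalloproteases, had the largest decrease on day 5 (−1.06, SE 0.07, adjusted p = 1.90e-05), and *Tspan14*, a tetraspanin that carries ADAM10 to the cell surface, on day 7 (−0.94, SE 0.05, adjusted p = 7.18e-07).

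Of 17 adaptors and sorting factors of APP, 5 were higher and 4 lower on day 5, and 11 and 5 on day 7, where their median was 0.29. *Apba3*, an X11 adaptor, led the increases on day 5 (0.77 by limma, SE 0.12, adjusted p = 0.00109), and *Lrp1*, the lipoprotein receptor that takes up APP, on day 7 (0.95, SE 0.09, adjusted p = 1.46e-05). *Sorl1*, a sorting receptor that holds APP away from BACE1, fell on day 5 (−0.71, SE 0.14, adjusted p = 0.00474) and was slightly higher on day 7 (0.12, SE 0.03, adjusted p = 0.0131). *Apbb2*, a FE65 adaptor, had the largest decrease on day 7 (−0.82, SE 0.06, adjusted p = 2.66e-06).

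Of 8 genes for amyloid beta degradation and carriage, 5 were higher and 1 lower on day 5 and 4 and 2 on day 7. *Clu*, a secreted chaperone, rose from 1333 to 2056 scaled TPM on day 5 (0.62 by limma, SE 0.06, adjusted p = 0.000127), *Ctsb*, a lysosomal protease, rose from 1069 to 1913 on day 7 (0.84, SE 0.04, adjusted p = 3.48e-07), and *Ece1* fell on day 5 (−1.19, SE 0.16, adjusted p = 0.000665) as did *Ece2* on day 7 (−0.31, SE 0.06, adjusted p = 0.00190), a call lost in the common fit of 16 libraries (−0.33, adjusted p = 0.0572). *Clu* is also strongly expressed by astrocytes, whose summed markers were higher in the same libraries through *Gfap* and *Aldoc*, with 5 of the 8 not called and *Slc1a2* lower on day 5 (−0.65).

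The 12 other secretase substrates had 4 lower and 8 not called on day 5, with a median of −0.28, and 6 higher and 3 lower on day 7, with a median of 0.31. *Sez6*, a BACE1 substrate of neurons, was lowest on day 5 (−0.77 by limma, SE 0.07, adjusted p = 5.67e-05) and at −0.02 (adjusted p = 0.846) on day 7. *Sez6l2* had the largest increase on day 7 (0.77, SE 0.09, adjusted p = 8.08e-05), and *Chl1*, an adhesion molecule, the largest decrease (−0.42, SE 0.05, adjusted p = 7.21e-05).

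Of 23 genes related to *Bin1* or to endocytosis, 6 were higher and 5 lower on day 5 and 11 and 5 on day 7. *Ap2m1*, a subunit of the clathrin adaptor AP2, rose from 456.8 to 674.5 scaled TPM on day 5 (0.56 by limma, SE 0.06, adjusted p = 0.000170), and *Dnm1*, the neuronal dynamin, from 4.73 to 8.34 on day 7 (0.80, SE 0.13, adjusted p = 0.000672). *Rin3*, a guanine nucleotide exchange factor that binds BIN1, was lower on day 5 (−0.42, SE 0.10, adjusted p = 0.0119), a call lost under quantile normalization (adjusted p = 0.0724) and with the replicate block (adjusted p = 0.0666), and on day 7 (−0.72, SE 0.14, adjusted p = 0.00227).

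**Figure D4:**
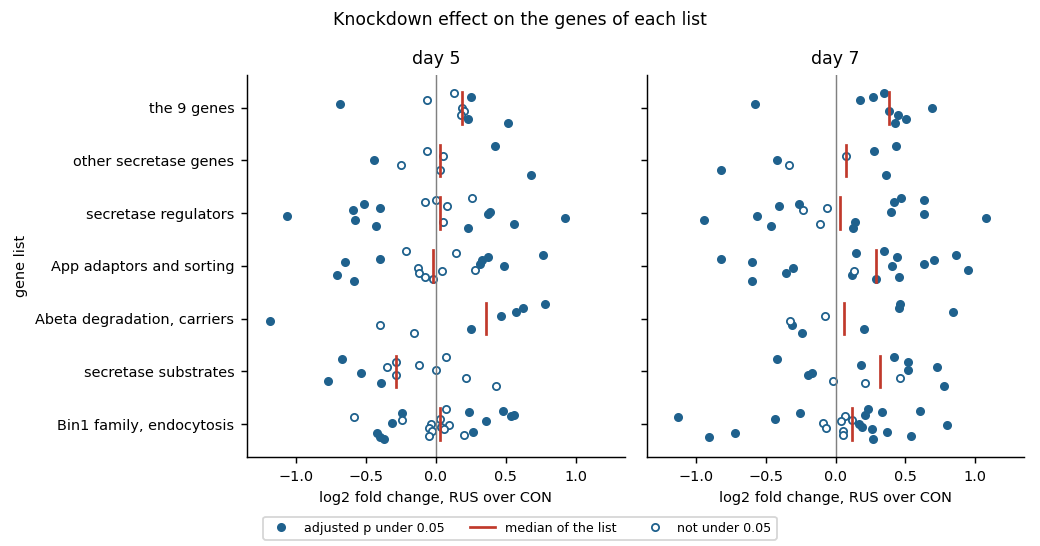
Log2 fold change of shRNA-RUS over shRNA-CON (x axis) of each tested gene of 7 lists (y axis) on day 5 and day 7; filled points have an adjusted p under 0.05 and the red line is the median of a list. The 9 genes have medians of 0.18 and 0.39, and every list holds genes on both sides of 0 on both days.

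A strand-specific count is not stated for these libraries, and 6 of the 9 genes overlap another gene on the opposite strand. *Copa* overlaps *Ncstn* over 267 bases, *Car14* overlaps *Aph1a* over 521 bases, *Rnf214* overlaps *Bace1* over 975 bases, and antisense or non-coding genes lie within *App*, *Psen2*, *Bace1* and *Bin1*, where *Gm31728* covers 19.2% of the length of *Psen2*. If strand was not used in the counting, reads from these stretches cannot be told apart between the genes. How far the values of the 9 genes depend on scaling, filter and single libraries is shown by the plot of ranges over the alternatives.

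**Figure D5:**
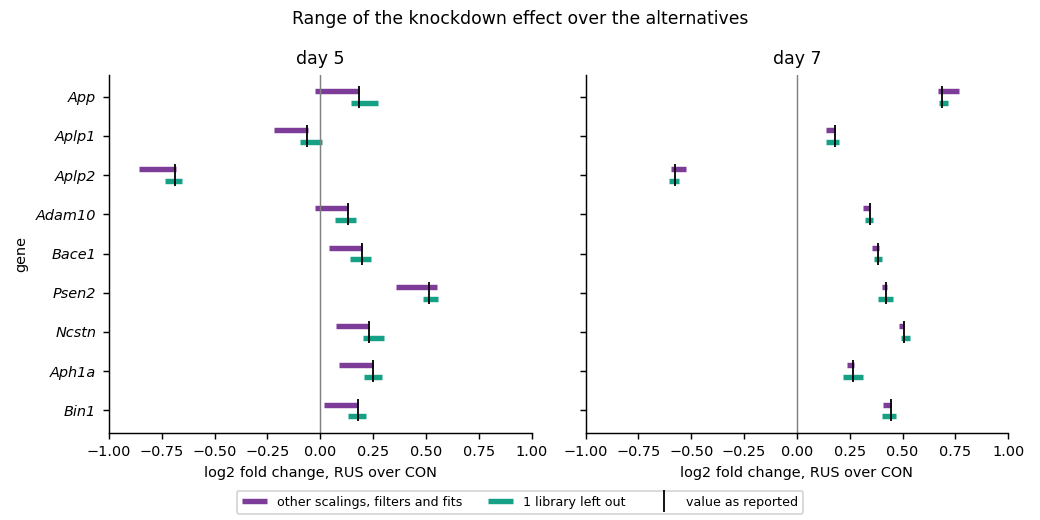
Lowest to highest log2 fold change (x axis, bars) of the 9 genes (y axis) over other scalings, filters and fits and over fits with 1 library left out, on day 5 and day 7; the black mark is the value as reported. On day 7 no bar touches 0, and on day 5 the bars of App, Aplp1 and Adam10 do.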

How the data were processed

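RNA-seq libraries of NSC were analysed. Reads were aligned by the authors with STAR to mm10 (GRCm38) and quantified with RSEM, and TPM values per gene and library were deposited. Per the file headers, the deposited tables also hold the authors' base mean (a mean of size-factor normalized counts, treated here as a signal), and a log2 fold change with its error, a test statistic (score) and p-values from their own comparison by DESeq2, of which only the base mean was used. No read counts were used here, so depth is known only through the base mean.

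TPM were divided by median-ratio library factors, made from genes of at least 1 TPM in all libraries of a fit, and log2(TPM + 0.1) was analysed with limma 3.58.1 (R 4.3.3, eBayes with trend) for genes at or above 0.1 TPM in the mean, with Benjamini-Hochberg adjustment at 0.05. Fold changes are on this scale. Each day was fitted alone (8 libraries) and the day contrasts and the interaction over 16 libraries. The fit was tested on simulated data. Replicate numbers showed no clear pairing of libraries, and the main fits did not use them. Members and lists were chosen with earlier results of these data known. Named genes were the 9 members, 7 other secretase genes, *Gm20754*, from each list and day the called gene with the largest increase and decrease (mean of at least 1 TPM, no overlap), and the 5 genes most like *App* and *Bin1*, of which some are not reported here. *Bin2*, *Bin3*, *Nes*, *Vim* and the second-day values of list genes were added after their values were seen. Positions are from GENCODE vM21, and the figures were drawn with matplotlib 3.10.9. Alternatives were other pseudocounts, filters, scalings, no trend, a replicate block, 1 common fit and leaving out each library.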

Additional observations from a re-analysis of the deposited data

Results flagged for a closer look

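The effect of shRNA-RUS differed between day 5 and day 7 for 3 of the 9 genes by the limma interaction, beside 29.8% of all genes tested. The difference was 0.49 on the log2 scale for *App*, 0.26 for *Ncstn* (0.261 before rounding to 2 decimals) and 0.26 for *Bin1* (0.255), each larger on day 7 and the last the least stable.

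In 4 of the 36 groups of 4 libraries, 1 library stood further from the others than Dixon's criterion allows, and chance gives about 1 in 20. *Aplp1* was at 47.63 scaled TPM in replicate 4 of shRNA-CON on day 5, against 41.25 to 42.12 in the others, and at 64.57 in replicate 4 of shRNA-RUS on day 7, against 57.18 to 58.29. *Ncstn* was at 111.5 in replicate 1 of shRNA-RUS on day 7, against 119.7 to 121.0. *Adam10* was at 42.40 in replicate 4 of shRNA-CON on day 5, against 45.99 to 46.40.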

How the results depend on the processing

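On day 7 the direction of all 9 genes was kept in each of the 18 alternatives, and the only call lost was that of *Aplp1* in the common fit. On day 5 *Aplp2* and *Psen2* kept their calls in all 18. The number of genes called higher on day 5 went from 3 to 1 with TPM as deposited, with quantile normalization and with the replicate block, and to 6 in the common fit, and the number called lower from 1 to 2 with TPM as deposited. For day 7 against day 5, TPM as deposited gave 5 higher and 0 lower with shRNA-CON (1 and 3 as reported) and 8 higher and 0 lower with shRNA-RUS (4 and 1), and quantile normalization gave 7 higher and 0 lower with shRNA-RUS. The interaction, with 3 higher as reported, gave 6 with TPM as deposited and 5 with quantile normalization. Over all genes, quantile normalization gave 7130 higher and 6781 lower from day 5 to day 7 with shRNA-RUS (8317 and 6135 as reported) and 3327 and 3341 on day 5, the common fit gave 3953 and 5043 on day 5 (3349 and 4034), and TPM as deposited turned 3349 higher calls on day 5 into 1768, 6135 lower calls from day 5 to day 7 with shRNA-RUS into 3545, and 3626 higher and 3464 lower calls of the interaction into 5700 and 2053. The other scalings differ by construction in the level set between libraries.

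Of the values that changed sign, that of *Aph1a* from day 5 to day 7 with shRNA-RUS had been called. With TPM as deposited they were *Adam10* on day 5 (−0.027), *Aplp2* from day 5 to day 7 with shRNA-CON (0.071), *Psen2*, *Ncstn* and *Aph1a* with shRNA-RUS (0.27, 0.32 and 0.077), *Psen2* in the interaction (0.066), and *Bace2* and *Adam9* on day 5 (−0.12 and −0.10). With quantile normalization they were *App* (−0.025), *Adam9* (−0.053) and *Adam19* (0.072) on day 5, *Aplp2* and *Psen2* between the days with shRNA-CON (0.14 and −0.018) and *Ncstn* with shRNA-RUS (0.24). With scaling to the 75th percentile *Ncstn* with shRNA-RUS was at 0.0077. With 1 library left out, *Aplp1* on day 5 ranged from −0.096 to 0.011, *Aplp2* and *Ncstn* between the days with shRNA-RUS from −0.016 to 0.072 and from −0.071 to 0.033, and *Aph1a* in the interaction from −0.042 to 0.050. Of the 58 values of other named genes, 19 of 1054 alternative values lost a call, among them that of *Psenen* in the interaction with TPM as deposited (−0.15, adjusted p = 0.0600) and with quantile normalization (−0.031, adjusted p = 0.720). The cause was not tested.

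Replicate numbers showed no clear pairing of libraries. Deviations of same-numbered libraries correlated at −0.25 to −0.016 on day 5 and 0.016 to 0.10 on day 7. On day 7, control replicates 2 and 3 correlated more with the same number (0.101 and 0.0566) than with any other (0.0634 and 0.00969). These values do not settle whether libraries were paired. With the replicate block, 2231 genes were called higher on day 5 in place of 3349, *Ncstn* and *Aph1a* had adjusted p = 0.0827 and 0.0622 there, *Bin1* in the interaction had 0.0828, and *App* from day 5 to day 7 with shRNA-RUS passed (0.15, adjusted p = 0.0399).

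Low levels of *Gm20754* limit the check of the knockdown in these libraries, and without counts no counting error can be given.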
